A study of Homo sapiens with 8 samples.

Results

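The genes described here encode subunits and assembly factors of respiratory complex I, measured by RNA-seq in the human breast cancer cell line MDA-MB-231 with and without arginine starvation. They were chosen by symbol, with earlier results of these data known. Every NDUFA, NDUFAB, NDUFAF, NDUFB, NDUFC, NDUFS and NDUFV gene of the deposited count table with at least 10 counts in at least 2 libraries was taken, which gave 45 of 23393 genes. All 45 matching symbols met the minimum, and all 45 also passed the expression filter of the test. They comprised 13 NDUFA, 11 NDUFB and 2 NDUFC genes, NDUFAB1, 11 genes of the joint NDUFS and NDUFV class (NDUFS/V), and 7 NDUFAF assembly factors. Single members held between 265 and 5575 counts per library.

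MDA-MB-231 is an established triple-negative line. Its parental cells make little argininosuccinate synthase (ASS1), which cells need to make arginine themselves. Parental cells and p0#27 cells, written here as ρ0 (clone 27), were compared. ρ0 cells are by name cells depleted of mitochondrial DNA. None of the genes analysed carries the MT- prefix of mitochondrial genes (0 of 23393), so this label could not be checked here. Per the study's methods they were kept with pyruvate, uridine and ethidium bromide. All cells were grown in DMEM with high glucose, serum and antibiotics. The starved groups received arginine deiminase (ADI), which degrades arginine, at 0.3 µg/mL for 48 h per the labels, whereas the study's methods describe arginine-free culture. The 4 groups were parental control, parental starved, ρ0 control and ρ0 starved, with 2 libraries each. Nothing states that replicate libraries came from separate cultures, so p-values measure the spread between these libraries, which may be technical. The ρ0 cells are 1 clone kept in their own supplements, and the loss of mitochondrial DNA, the clone and the supplements cannot be told apart.

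Libraries held 25259503 to 31022155 counts, of which complex I genes took 0.198% to 0.262%. VIM, CD44, AXL, MSN and CAV1, the markers expected in this line, were above 1 CPM (read counts scaled to library size by TMM) in all 8 libraries. Of 6 genes expected to be low, ESR1, PGR and KRT5 were at most 0.18 CPM everywhere. CDH1, EPCAM and ASS1 averaged 0.033, 0.24 and 0.13 CPM in parental libraries but 9.77, 20.6 and 15.8 CPM in ρ0 libraries, and their part in the differences between lines was not tested. Among markers of other cells, PTPRC and DCN were at most 0.452 CPM and COL1A1 was between 5.64 and 16 CPM. The ρ0 control libraries stood apart from each other. Their biological coefficient of variation was 25.1%, against 5.18%, 2.25% and 1.84% in parental control, parental starved and ρ0 starved libraries. Among complex I genes, 18 differed by more than 0.3 on the log2 scale between the ρ0 control libraries, and none did so within any other group. For each gene the test used 1 estimate of spread for all groups. Standard errors and p-values of comparisons with the ρ0 control libraries may thus be too small, and those of other comparisons too large. Where 1 of these libraries was left out, the other groups alone set the estimate of spread. Calls and p-values of such fits therefore reflect the removed spread as well as the shifted values.

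Complex I takes electrons from NADH and passes them to ubiquinone while it pumps protons across the inner mitochondrial membrane. NADH is oxidised in the N module, ubiquinone is reduced in the Q module, and the membrane arm, with a proximal and a distal part, carries the pumps. Its core holds 7 nuclear-encoded subunits measured here, NDUFS1, NDUFS7 and NDUFV1 among them, and further subunits encoded by mitochondrial DNA, which were not analysed here. The NDUFA, NDUFB and NDUFC genes and some NDUFS and NDUFV genes encode accessory subunits, and NDUFB subunits lie in the distal membrane arm. Assembly factors guide the building of the complex and are not part of the finished enzyme. NDUFA4 is now counted as a subunit of complex IV, and NDUFAB1 is the mitochondrial acyl carrier protein. Both are members here by their symbols and enter the counts, sums and medians.

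The stretches upstream of 5 genes are shown because these genes had the largest falls and rises with starvation in parental cells, or because the study examined histone acetylation at their promoters. Each runs 5′ to 3′ over the 150 bases before the transcription start in RefSeq (GRCh38.p14), and capitals mark matches, on either strand, to the motifs searched.
NDUFB7 (chr19:14572067-14572216, minus strand): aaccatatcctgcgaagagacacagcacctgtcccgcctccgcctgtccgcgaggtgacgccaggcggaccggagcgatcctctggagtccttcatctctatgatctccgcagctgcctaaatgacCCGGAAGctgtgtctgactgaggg
NDUFB6 (chr9:32573160-32573309, minus strand): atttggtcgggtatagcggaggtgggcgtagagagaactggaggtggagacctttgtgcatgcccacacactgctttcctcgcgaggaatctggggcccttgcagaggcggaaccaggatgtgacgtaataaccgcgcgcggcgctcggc
NDUFB10 (chr16:1959388-1959537, plus strand): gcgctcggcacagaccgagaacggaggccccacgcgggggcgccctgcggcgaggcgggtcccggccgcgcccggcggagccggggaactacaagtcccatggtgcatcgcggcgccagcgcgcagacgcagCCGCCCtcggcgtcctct
NDUFAF5 (chr20:13784878-13785027, plus strand): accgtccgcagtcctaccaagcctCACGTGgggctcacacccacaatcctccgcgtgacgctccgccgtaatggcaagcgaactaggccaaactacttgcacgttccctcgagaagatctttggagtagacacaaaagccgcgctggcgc
NDUFAF4 (chr6:96897892-96898041, minus strand): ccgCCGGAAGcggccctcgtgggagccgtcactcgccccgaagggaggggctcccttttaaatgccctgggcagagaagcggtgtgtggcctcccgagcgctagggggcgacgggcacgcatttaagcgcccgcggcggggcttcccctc
The NDUFB7 and NDUFAF4 stretches each held 1 match to CCGGAAG (ETS, as bound by GABP), NDUFB10 held 1 match to GGGCGG (Sp1) on the opposite strand, and NDUFAF5 held 1 match to the palindrome CACGTG (the E-box bound by MYC). None of the 6 motifs searched was found in the NDUFB6 stretch.

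The factors searched for are ones known to act on nuclear genes of the respiratory chain or in amino acid stress. Of the 45 genes, 38 had a promoter entry of 300 bases, 250 before and 50 after the start, and the first entry per gene was used. GCGCNTGCG, a site for NRF1, was held by 10 of these 38 promoters (26.3%), against 8.05% of 27305 promoters and 13.8% of the 11182 promoters of tested genes. AANATGGCG, a site for YY1, was also held by 10 of 38 (26.3%), against 3.37% and 6.40%. This motif holds ATG, the letters of a start codon. Whether matches after the transcription start mark the start of translation was not tested. The shares for the other motifs were 15.8% against 10.7% and 17.6% for CCGGAAG, 57.9% against 44.6% and 67.8% for GGGCGG, 10.5% against 7.43% and 9.76% for CACGTG, and 2.63% against 3.67% and 1.80% for TGATGNAA (the composite site of ATF4). Both strands were searched, and matches that overlap were counted once per promoter. A match is a run of letters, and binding was not measured here.

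Windows of 29 bases around NRF1 matches are shown for members that fell with starvation in parental cells (NDUFA8, NDUFA9, NDUFS6 and NDUFS7) and for members that rose (NDUFA6, NDUFA11 and NDUFAF5), with the matches in capitals.
NDUFA8 (chr9:122159765-122159793, minus strand): gttgccggatGCGCATGCGCAGGCGCcgt
NDUFA9 (chr12:4649024-4649052, plus strand): ttcttggttaGCGCTTGCGcagacaggcg
NDUFS6 (chr5:1801351-1801379, plus strand): cagaagccgtGCGCATGCGttagcgctaa
NDUFS7 (chr19:1383823-1383851, plus strand): ttccggtttcCGCATGCGCtccgagccgc
NDUFA6 (chr22:42090778-42090806, minus strand): gcccgcggtcCGCACGCGCtgcttgcaaa
NDUFA11 (chr19:5903870-5903898, minus strand): ccggtccccgGCGCGTGCGcgcgatccat
NDUFAF5 (chr20:13785014-13785042, plus strand): agccgcgctgGCGCATGCGCacaaaaagc
Of 12 members with a promoter entry that fell in parental cells, 5 held this motif, as did 3 of 11 that rose and 2 of 15 not called. Members of either direction thus carried the same letters.

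The same windows are shown for YY1 matches, in members that fell (NDUFA7, NDUFA9, NDUFS4, NDUFS6 and NDUFS7) and in members that rose (NDUFA6 and NDUFS1).
NDUFA7 (chr19:8321343-8321371, minus strand): tcgcggacggAAGATGGCGtccgccaccc
NDUFA9 (chr12:4649114-4649142, plus strand): attgtgggaaAAGATGGCGgctgccgcac
NDUFS4 (chr5:53560650-53560678, plus strand): tgcctgcagcAAGATGGCGgcggtgtcaa
NDUFS6 (chr5:1801405-1801433, plus strand): ccagcggcgcAAAATGGCGgcggcgatga
NDUFS7 (chr19:1383914-1383942, plus strand): ggccgaggccAAGATGGCGgtgctgtcag
NDUFA6 (chr22:42090729-42090757, minus strand): atgctttggcAAGATGGCGgggagcggcg
NDUFS1 (chr2:206159411-206159439, minus strand): tagccgaggcCGCCATATTgaataagcga
In 9 of the 10 promoters the match lay after the transcription start, between positions 9 and 50 counted from the first transcribed base. It was held by 5 of 12 members that fell, 2 of 11 that rose and 3 of 15 not called, and 4 genes (NDUFA6, NDUFA9, NDUFS6 and NDUFS7) held both motifs.

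Summed over all 45 genes, the level was 2361 ± 88.8 CPM (SD, n = 2) in parental control, 2242 ± 28.5 in parental starved, 2487 ± 59.4 in ρ0 control and 2077 ± 5.61 in ρ0 starved libraries. Complex I genes took 0.252% and 0.249% of the counts in the ρ0 control libraries and 0.199% and 0.198% in the ρ0 starved ones. In bulk RNA, fewer cells that express a gene and less RNA per cell cannot be told apart. The 7 assembly factors had their highest sum in the parental starved libraries, at 262 and 274 CPM, against 146 and 159 CPM in parental control, 161 and 200 CPM in ρ0 control and 199 and 195 CPM in ρ0 starved libraries. The NDUFB sum was highest in the ρ0 control libraries, at 648 and 545 CPM, where it also varied most, against 469 and 501 CPM in parental control, 415 and 433 CPM in parental starved and 455 and 456 CPM in ρ0 starved libraries. The NDUFS/V sum was lower in both starved groups, at 766 and 769 CPM in parental and 762 and 754 CPM in ρ0 cells, than in the controls, at 903 and 929 CPM and 862 and 891 CPM. The NDUFA sum was 644 and 695 CPM in parental control, 648 and 653 CPM in parental starved, 743 and 680 CPM in ρ0 control and 582 and 587 CPM in ρ0 starved libraries.

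**Figure D1:**
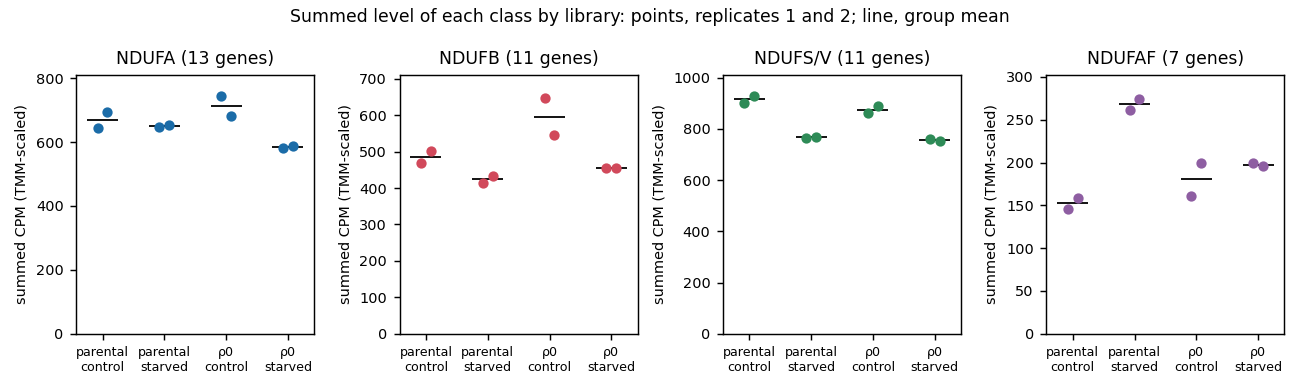
Summed CPM (y axis, from 0) of the NDUFA, NDUFB, NDUFS/V and NDUFAF classes in each group (x axis), with 1 point per library and a line at the group mean. The assembly factor sum in parental starved libraries (262 and 274 CPM) lies above all other libraries, and the NDUFS/V sum is lower in both starved groups than in both controls.

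Per length, the assembly factors were the lowest class. In parental control cells the median was 12.9 CPM per kilobase of transcript for NDUFAF, 56.9 for NDUFA, 62.1 for NDUFB and 63.7 for NDUFS/V. NDUFAF5 had the lowest level per length in parental control cells, at 4.41 CPM per kilobase, and NDUFA12 and NDUFS5 the highest, both at 159.9 CPM per kilobase. The lengths are medians of annotated transcripts, and the transcripts these cells use were not measured.

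In parental cells, 48 h of starvation lowered 15 complex I genes, raised 11 and left 19 not called. Over all 15262 tested genes, 35.5% were lower and 30.4% higher, so the members' shares, 15 and 11 of 45, were near the background. NDUFB7 and NDUFB6 fell past a log2 change of 1, and NDUFAF5, NDUFAF4 and NDUFV3 rose past it. These 5 genes compare with 34.9% of all tested genes past that threshold in either direction. The members' median log2 change was 0.00, against -0.07 over all tested genes. The ρ0 control libraries enter this comparison through the common estimate of spread, and more members were called higher without either of them. The members' median was then -0.003 without replicate 1, against -0.078 over all tested genes. Without replicate 2 it was 0.039, against -0.040.

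By class, none of the 7 assembly factors fell and 4 rose, with a class median of 0.58. In NDUFS/V 5 fell and 2 rose (median -0.30), and in NDUFA 5 fell and 3 rose (median -0.14). In NDUFB 4 fell and 2 rose (median 0.11), in NDUFC 1 of 2 fell, and NDUFAB1 was not called. Without the NDUFAF genes, NDUFA4 and NDUFAB1, 7 of 36 members rose and 14 fell, with a median of -0.12. By position in the complex, 3 of 8 N module genes and 4 of 8 genes of the Q module and its neighbours fell. So did 3 of 9 genes of the proximal and 4 of 11 of the distal membrane arm. Over all tested genes 35.5% fell and 30.4% rose, and differences between classes or positions were not tested.

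NDUFB7, an accessory subunit of the distal membrane arm, fell most. It was at 50.5 and 54.8 CPM in parental control and 13.6 and 12.8 CPM in parental starved libraries, a log2 change of -1.996 (SE 0.10, adjusted p = 9.0e-06, edgeR). In ρ0 cells it was at 57.1 and 53.3 CPM in control and 25.3 and 25.5 CPM in starved libraries, a log2 change of -1.12 (SE 0.09, adjusted p = 2.2e-04). The starved libraries lay below the controls in both lines, and the parental starved libraries were the lowest of all 8. The response of ρ0 cells was smaller by 0.88 on the log2 scale (SE 0.13, adjusted p = 0.0026, interaction).

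NDUFB6, another distal arm subunit, fell in both lines. It was at 56.4 and 59.7 CPM in parental control and 26.2 and 27.0 CPM in parental starved libraries, a log2 change of -1.13 (SE 0.11, adjusted p = 9.9e-05). The ρ0 libraries were at 82.8 and 68.1 CPM in control and 32.1 and 34.3 CPM in starved libraries, a log2 change of -1.19 (SE 0.11, adjusted p = 3.3e-04). The difference between these responses was -0.06 (SE 0.16, adjusted p = 0.80). With 1 library left out it lay between -0.22, without ρ0 control replicate 2, and 0.09.

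NDUFB10, also in the distal arm, fell in parental but was not called in ρ0 cells. It was at 51.8 and 54.3 CPM in parental control and 28.9 and 31.1 CPM in parental starved libraries, a log2 change of -0.82 (SE 0.10, adjusted p = 2.6e-04). In ρ0 cells the controls were at 48.3 and 55.99 CPM and the starved libraries at 48.3 and 48.6 CPM, a log2 change of -0.10 (SE 0.10, adjusted p = 0.43). Only the parental starved libraries stood below the others. The responses differed by 0.72 (SE 0.14, adjusted p = 0.0068). Without ρ0 control replicate 1 the change of NDUFB10 in ρ0 cells was -0.21, and without replicate 2 it was 0.02.

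NDUFV1, the core subunit that binds NADH and the flavin, was at 167 and 169 CPM in parental control and 92.9 and 92.0 CPM in parental starved libraries, a log2 change of -0.86 (SE 0.07, adjusted p = 4.9e-05). Its ρ0 libraries were at 123.1 and 132 CPM in control and 93.9 and 94.8 CPM in starved libraries, a log2 change of -0.44 (SE 0.07, adjusted p = 0.0030). Both starved groups reached nearly the same level from different controls, and the fall was smaller in ρ0 cells by 0.43 (SE 0.10, adjusted p = 0.014).

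**Figure D2:**
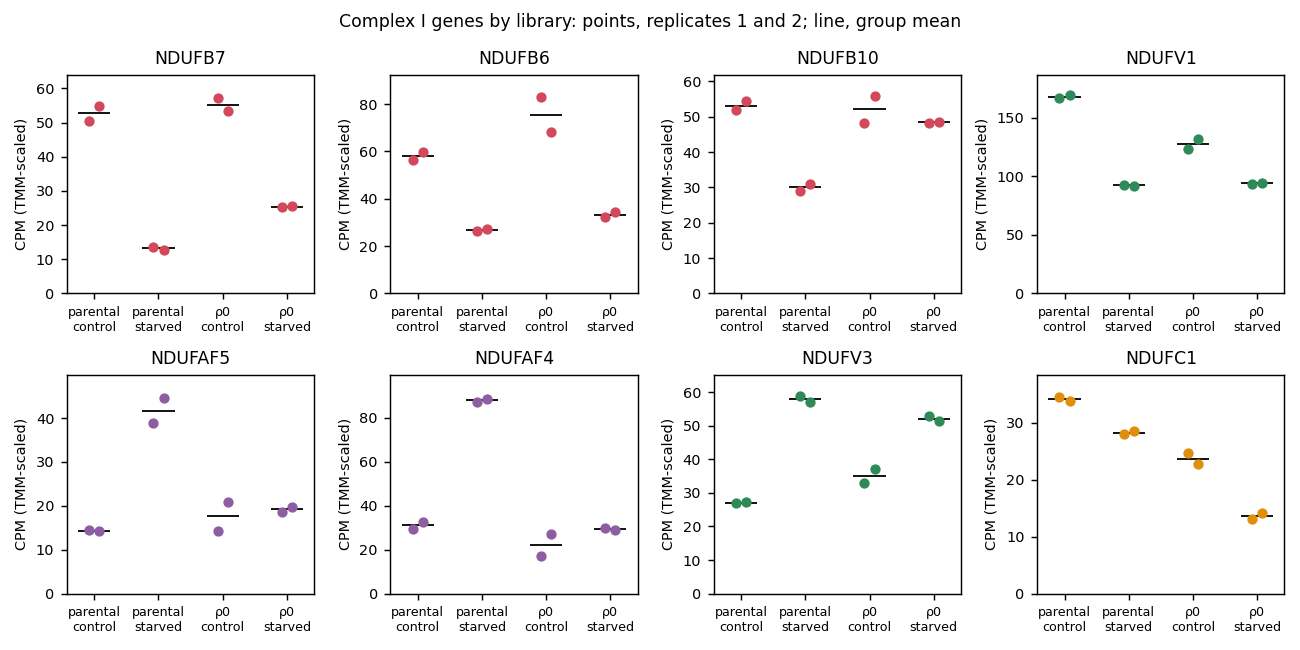
CPM (y axis, from 0) of 8 complex I genes in each group (x axis), with 1 point per library and a line at the group mean. NDUFB7 and NDUFB6 are lower in both starved groups, NDUFB10 is low in the parental starved libraries (28.9 and 31.1 CPM), and NDUFAF5 and NDUFAF4 are high in the parental starved libraries.

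NDUFS7, a core iron-sulfur subunit of the Q module, fell in parental cells by 0.49 on the log2 scale (51.1 and 52.8 CPM to 36.7 and 37.5 CPM, adjusted p = 8.9e-04) and was not called in ρ0 cells (log2 change -0.14, adjusted p = 0.17). The difference for NDUFS7 was 0.35 (SE 0.11, adjusted p = 0.036), a call held in 7 of 15 alternative settings. NDUFB7, NDUFB10, NDUFV1 and NDUFS7 were among the 5 members whose response was called higher in ρ0 than in parental cells. Each of these 4 had fallen in parental cells. The difference is the ρ0 response minus the parental one, so a parental fall itself raises it and is no separate result.

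NDUFAF5 and NDUFAF4 rose most in parental cells. NDUFAF5, which hydroxylates an arginine of NDUFS7, was at 14.5 and 14.3 CPM in control and 38.8 and 44.6 CPM in starved libraries, a log2 change of 1.54 (SE 0.18, adjusted p = 2.1e-04). In ρ0 cells it was at 14.3 and 20.9 CPM in control and 18.7 and 19.7 CPM in starved libraries, a log2 change of 0.12 (SE 0.18, adjusted p = 0.61). The parental starved libraries stood above the other 6, among which the groups overlapped. The ρ0 response was lower by 1.41 (SE 0.25, adjusted p = 0.0047). Without ρ0 control replicate 1 the change of NDUFAF5 in ρ0 cells was -0.12, and without replicate 2 it was 0.44.

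NDUFAF4, which acts with NDUFAF3 early in assembly, was at 29.5 and 32.7 CPM in parental control and 87.4 and 88.7 CPM in parental starved libraries, a log2 change of 1.503 (SE 0.20, adjusted p = 3.6e-04). In ρ0 cells it was at 17.03 and 27.3 CPM in control and 30.1 and 29.2 CPM in starved libraries, a log2 change of 0.42 (SE 0.20, adjusted p = 0.13). The difference between the responses was -1.09 (SE 0.28, adjusted p = 0.018). Without ρ0 control replicate 1 the change of NDUFAF4 in ρ0 cells was 0.12, and without replicate 2 it was 0.81, so its size depended on 1 library. The annotation lists 4 pseudogenes named after NDUFAF4, with which reads could be shared.

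Of the other assembly factors, NDUFAF2, a relative of NDUFA12, rose in parental cells from 20.3 and 20.7 CPM to 32.9 and 32.7 CPM (log2 change 0.68, adjusted p = 0.0011). NDUFAF7, which methylates an arginine of a complex I subunit, rose from 20.7 and 20.7 CPM to 28.8 and 33.3 CPM (log2 change 0.58, adjusted p = 0.0058). NDUFAF1, a partner of ACAD9 and ECSIT, had a log2 change of 0.52 and an adjusted p of 0.051. NDUFAF3 and NDUFAF6 had log2 changes of 0.00 and 0.01. In ρ0 cells none of the 7 assembly factors was called in either direction, and 8954 of 15262 tested genes were not called either. Their log2 changes there ran from -0.27 to 0.42, with a median of 0.12. The difference between the lines was called for NDUFAF2 (-0.58, adjusted p = 0.021) besides NDUFAF4 and NDUFAF5. Over all tested genes 18.8% had a lower response in ρ0 cells. These results too rested on the ρ0 control libraries. Without replicate 1 of that group NDUFAF6 was lower (-0.49) and NDUFAF7 higher (0.50) with starvation in ρ0 cells, and without replicate 2 NDUFAF1 (0.52), NDUFAF2 (0.24), NDUFAF4 and NDUFAF5 were higher. Without parental starved replicate 2 the parental call of NDUFAF7 ended (adjusted p = 0.053).

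NDUFV3, an accessory subunit of the N module, was the only member that rose in both lines. It was at 26.9 and 27.3 CPM in parental control and 58.7 and 57 CPM in parental starved libraries, a log2 change of 1.09 (SE 0.09, adjusted p = 4.9e-05). In ρ0 cells it was at 32.8 and 37.2 CPM in control and 53.0 and 51.3 CPM in starved libraries, a log2 change of 0.57 (SE 0.09, adjusted p = 0.0025). Its rise was smaller in ρ0 cells by 0.52 (the interaction was -0.52, SE 0.13, adjusted p = 0.017).

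Other rises in parental cells were those of NDUFA11, a subunit at the junction with the membrane arm (log2 change 0.86, SE 0.12), NDUFA6, a subunit of the LYR family (0.83, SE 0.08), NDUFB8 (0.66, SE 0.11), NDUFB1 (0.62, SE 0.19), NDUFA10 (0.31, SE 0.08) and NDUFS1, a core iron-sulfur subunit of the N module (0.29, SE 0.07). NDUFA6 was at 54.1 and 59.0 CPM in control and 98.4 and 103 CPM in starved parental libraries, against 59.0 and 62.2 CPM and 68.5 and 71.8 CPM in ρ0 cells. NDUFA11 was at 15.4 and 16.6 CPM in parental control and 29.6 and 28.4 CPM in parental starved libraries. None of these 6 genes was called in ρ0 cells, where 8954 of 15262 tested genes were not called. The response was called lower there than in parental cells for 5 of the 6, all but NDUFA10, against 18.8% of all tested genes. A parental rise itself lowers this difference. These differences were called in 15 of 15 alternative settings for NDUFA6, 9 for NDUFA11 and NDUFB1, and 5 for NDUFB8 and NDUFS1. The parental calls of NDUFB1, NDUFA10 and NDUFS1 ended with total count scaling and without parental control replicate 2, among other settings (12, 10 and 12 of 16 held). In ρ0 cells, NDUFA6 (0.17) and NDUFA11 (0.39) were called without ρ0 control replicate 1, and NDUFA6 (0.26), NDUFA10 (0.16) and NDUFB1 (-0.61) without replicate 2. The largest such differences were -0.98 for NDUFB1 (SE 0.26, adjusted p = 0.022) and -0.62 for NDUFA6 (SE 0.12, adjusted p = 0.0058). That of NDUFB1 was -0.66 without ρ0 control replicate 1 and -1.27 without replicate 2.

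In ρ0 cells, starvation lowered 16 members and raised 1, with 28 not called. The background was 22.1% lower and 19.2% higher over all tested genes, and the members' median log2 change was -0.21 against -0.02 over all tested genes. NDUFB6, NDUFB7 and NDUFA9 fell past a log2 change of 1, as 12.4% of all tested genes passed it in either direction. In NDUFA 4 fell (median -0.18), in NDUFB 4 (median -0.34), in NDUFS/V 5 (median -0.38), both NDUFC genes fell (median -0.61), and NDUFAB1 fell by 0.57 on the log2 scale. The counts of calls depended on the ρ0 control libraries. Without replicate 1 of that group the members' median was -0.166, and without replicate 2 it was -0.265, each against 0.00 over all tested genes. In the ρ0 libraries alone 1 was higher and 9 lower.

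NDUFA9, an accessory subunit of the Q module, was at 66.5 and 82.7 CPM in ρ0 control and 35.1 and 35.8 CPM in ρ0 starved libraries, a log2 change of -1.07 (SE 0.12, adjusted p = 5.6e-04). In parental cells it fell from 59.6 and 64.5 CPM to 33.8 and 35.3 CPM (log2 change -0.84, SE 0.12). The difference of -0.23 (SE 0.16) had an adjusted p of 0.30, and it was -0.38 without ρ0 control replicate 1. NDUFC1, in the proximal membrane arm, was at 24.6 and 22.7 CPM in ρ0 control and 13.2 and 14.1 CPM in ρ0 starved libraries, a log2 change of -0.80 (SE 0.10, adjusted p = 8.6e-04). In parental cells it went from 34.5 and 33.8 CPM to 28.0 and 28.5 CPM (log2 change -0.27, SE 0.09), and the fall was larger in ρ0 cells by 0.52 (interaction -0.52, SE 0.14, adjusted p = 0.019).

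The lines share no libraries, but both responses were tested in 1 fit with a common estimate of spread. Their calls are thus not fully separate, and counts of calls changed in fits to 1 line alone. In all, 10 members fell in both lines, among them NDUFA4, NDUFA8, NDUFA9, NDUFB5, NDUFB6, NDUFB7, NDUFC1, NDUFS6 and NDUFV1, against 14.6% of all tested genes, and 1 (NDUFV3) rose in both, against 13.1%. No member fell in one line and rose in the other, as 3.64% of all tested genes did. Of those called in parental cells only, 10 were higher and 5 lower (NDUFA3, NDUFA7, NDUFB10, NDUFS4 and NDUFS7), against 15.6% and 19% of all tested genes. Of those called in ρ0 cells only, all 6 were lower (NDUFA12, NDUFAB1, NDUFB11, NDUFC2, NDUFS3 and NDUFS5), against 5.86% lower and 4.12% higher. NDUFB11 and NDUFS5 fell less without ρ0 control replicate 1 (-0.17 and -0.23, against -0.34 and -0.42), and NDUFS3 without replicate 2 (-0.38, against -0.66). A call in 1 line alone does not show a difference. The difference itself was called for some members, with the ρ0 response higher for 5 and lower for 14, against 21.6% and 18.8% of all tested genes. Only NDUFAF5 and NDUFAF4 differed by more than 1 on the log2 scale, as 19.9% of all tested genes did in either direction. The members' median difference was -0.26, against 0.02 over all tested genes, and class medians were -0.40 in NDUFAF, -0.34 in NDUFB, -0.23 in NDUFA and -0.10 in NDUFS/V. For the 7 core subunits the median was 0.15. Without ρ0 control replicate 1 the members' median difference was -0.169, against 0.058 over all tested genes. Without replicate 2 it was -0.329, against 0.031. More members were called lower without either of them, and fewer without any other library. Of the 19 members called, 4 (NDUFB7, NDUFB10, NDUFAF5 and NDUFA6) were called in all 15 alternative settings. Each of the other 15 lost its call, with no change of sign, when 1 library outside the ρ0 control group was left out, for at least 5 of these 6 libraries (adjusted p from 0.052 to 0.19).

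**Figure D3:**
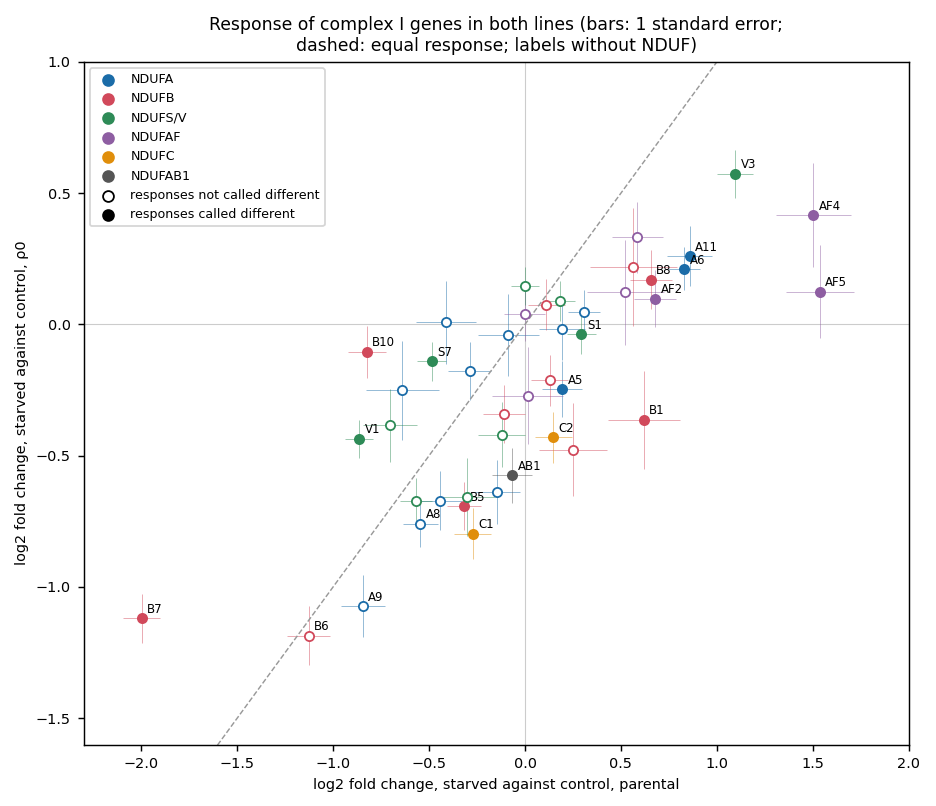
Log2 fold change with starvation in parental cells (x axis) and ρ0 cells (y axis) for complex I genes, with bars of 1 standard error, colours for classes, filled points where the responses were called different and a dashed line of equal response. NDUFB7 (-1.996 and -1.12) lies above the line, NDUFAF5 (1.54 and 0.12) and NDUFAF4 (1.503 and 0.42) lie below it, and NDUFB6 (-1.13 and -1.19) lies near it.

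In full medium, ρ0 cells had 12 members higher and 9 lower than parental cells, with 24 not called, against 30.5% higher and 31.8% lower over all tested genes. No member passed a log2 difference of 1, whereas 30.9% of all tested genes did. The members' median was 0.07, against -0.01 over all tested genes. In NDUFB 5 were higher and 2 lower (median 0.19), in NDUFA 3 and 3 (median 0.10), in NDUFS/V 2 and 3 (median -0.10), in NDUFAF 2 and 0 (median 0.29), and NDUFC1 was lower. Without ρ0 control replicate 1 the members' median was 0.083, against -0.026 over all tested genes. Without replicate 2 it was 0.110, against 0.008.

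NDUFB11, a distal arm subunit encoded on chromosome X, had the largest difference. It was at 49.0 and 50.8 CPM in parental control and 108 and 86.5 CPM in ρ0 control libraries, a log2 difference of 0.96 (SE 0.11, adjusted p = 2.1e-04). NDUFB2 was at 26.6 and 28.9 CPM in parental control and 67.3 and 38.4 CPM in ρ0 control libraries (log2 difference 0.93, SE 0.23, adjusted p = 0.0089). It had the widest gap between the ρ0 control libraries of any member, 0.81 on the log2 scale, and its difference was 0.47 without replicate 1 and 1.33 without replicate 2. Its call ended without parental control replicate 1 (adjusted p = 0.066). NDUFB3 was at 24.9 and 27.4 CPM against 57.9 and 39.9 CPM (0.90, SE 0.18, adjusted p = 0.0031), and NDUFA1, a proximal arm subunit, at 51.7 and 58.6 CPM against 108 and 76.2 CPM (0.74, SE 0.16, adjusted p = 0.0046). Without ρ0 control replicate 1 the difference was 0.61 for NDUFB3 and 0.47 for NDUFA1, and without replicate 2 it was 1.21 and 1.03. Exons of NDUFB11, NDUFB2 and NDUFA1 overlap genes on the opposite strand (RBM10, BRAF and RNF113A), and strand use in the counting is not given in the sources used here.

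Lower in ρ0 cells were NDUFB8, at 17.8 and 18.9 CPM in parental control and 12.4 and 12.5 CPM in ρ0 control libraries (log2 difference -0.56, SE 0.11, adjusted p = 0.0034), NDUFA7 (-0.53, SE 0.16, adjusted p = 0.020), NDUFC1 (-0.53, SE 0.09, adjusted p = 0.0020) and NDUFB9, a LYR protein (-0.48, SE 0.10, adjusted p = 0.0036). NDUFV1 was lower by 0.40 on the log2 scale (log2 difference -0.40, adjusted p = 0.0021) and NDUFB6 higher by 0.38 (adjusted p = 0.018). NDUFB7 and NDUFB10 had differences of 0.07 (SE 0.09) and -0.03 (SE 0.10), and the libraries of both lines overlapped. Without ρ0 control replicates 1 and 2 in turn, the difference was -0.30 and -0.75 for NDUFA7, 0.23 and 0.57 for NDUFB6, and 0.02 and 0.17 for NDUFB7. The calls of NDUFA7 and NDUFB6 ended without either parental control library (adjusted p up to 0.11).

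With both lines starved, 11 members were higher and 19 lower in ρ0 cells, against 32.9% and 33.5% of all tested genes, and 4 passed a log2 difference of 1, against 35.5%. The members' median was -0.11, against -0.01 over all tested genes. The 4 were NDUFAF4 (-1.57, SE 0.20, adjusted p = 2.8e-04), NDUFAF5 (-1.12, SE 0.18, adjusted p = 9.2e-04), NDUFC1 (-1.05, SE 0.10, adjusted p = 6.3e-05) and NDUFB8 (-1.04, SE 0.11, adjusted p = 1.3e-04), all lower in ρ0 cells. NDUFB8 was at 28.1 and 29.7 CPM in parental starved and 15.01 and 13.05 CPM in ρ0 starved libraries. Higher in starved ρ0 cells were NDUFB7 (0.94, SE 0.10), NDUFA1 (0.79, SE 0.16), NDUFB11 (0.73, SE 0.11), NDUFAF3 (0.70, SE 0.11) and NDUFB10 (0.69, SE 0.10). NDUFV1 did not pass the test (0.03, SE 0.07, adjusted p = 0.74). This comparison uses neither control group and so does not rest on the ρ0 control libraries beyond their share in the common estimate of spread.

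**Figure D4:**
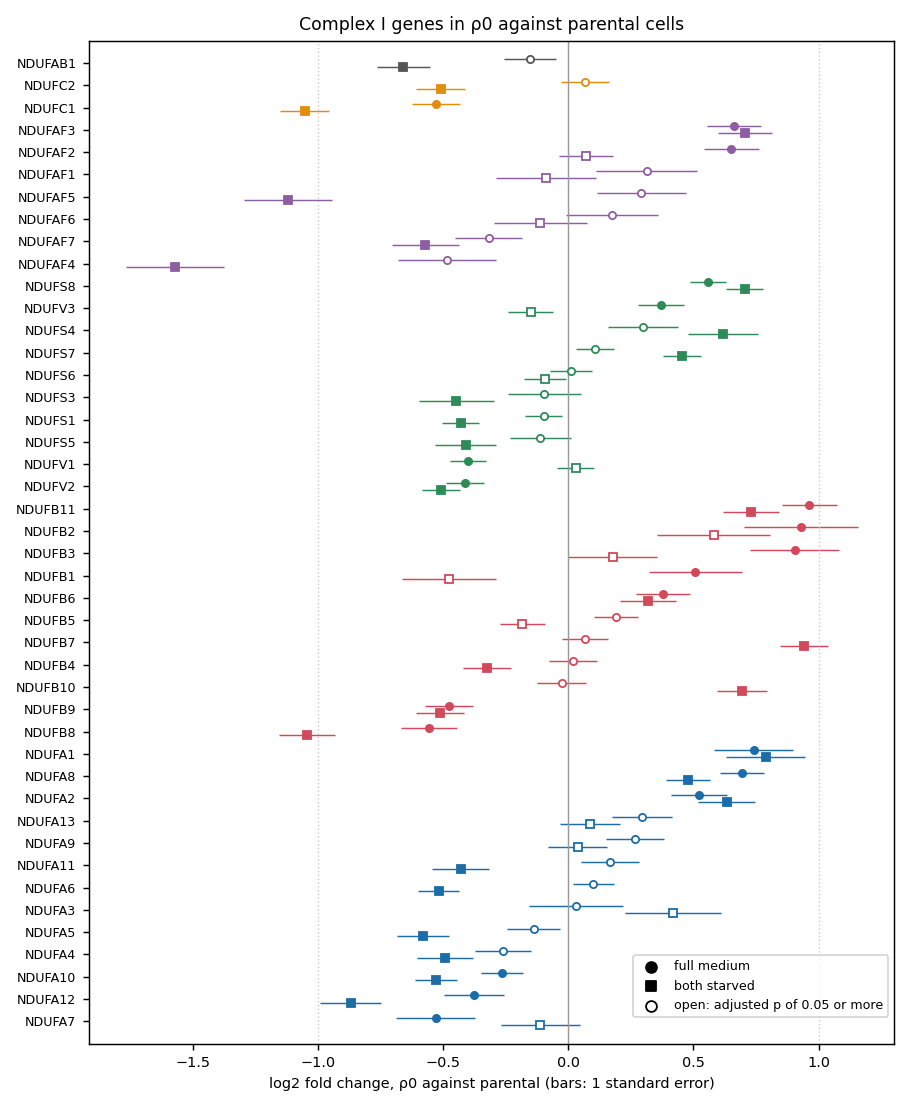
Log2 fold change (x axis) of ρ0 against parental cells for complex I genes (y axis, by class), with circles for full medium, squares for both lines starved, bars of 1 standard error and open symbols at an adjusted p of 0.05 or more. No circle passes 1 in either direction, and the squares of NDUFAF4 (-1.57), NDUFAF5 (-1.12), NDUFC1 (-1.05) and NDUFB8 (-1.04) lie beyond -1.

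Over the 4 group means, the widest ratios of highest to lowest were those of NDUFB7 (4.18), NDUFAF4 (3.97), NDUFAF5 (2.90), NDUFB6 (2.84) and NDUFC1 (2.50). The highest mean lay in parental starved cells for 16 members, in ρ0 control for 15, in parental control for 10 and in ρ0 starved for 4. Among NDUFAF genes it lay in parental starved cells for 4 of 7.

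A further 10 assembly factors of complex I, which carry no NDUF symbol in the deposited counts, were tested as other genes of the pathway. In parental cells 4 rose and 4 fell, against 30.4% higher and 35.5% lower over all tested genes. COA1 had a log2 change of -2.05 (SE 0.09, adjusted p = 6.7e-06) and NUBPL, which serves iron-sulfur clusters, one of -1.82 (SE 0.20, adjusted p = 1.5e-04). ACAD9 (-1.08) and FOXRED1 (-0.67) also fell, whereas C17orf89 (0.83), TMEM261 (0.74), TMEM126B (0.65) and TMEM186 (0.38) rose. The parental rises of NDUFAF genes were thus not common to all assembly factors. In ρ0 cells 3 rose and 5 fell, against 19.2% and 22.1% of all tested genes. The responses differed between the lines for COA1 (1.70), NUBPL (1.28), ACAD9 (0.67) and ECSIT (-0.59). Over all tested genes 21.6% differed upward and 18.8% downward. In full medium 1 was higher and 7 lower in ρ0 cells, against 30.5% and 31.8% of all tested genes. With both lines starved 4 were higher and 5 lower, against 32.9% and 33.5%.

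Complex I members were set beside 40 nuclear subunits of complexes II to V. Counts were alike in parental cells, where 11 of the 40 rose and 15 fell (median -0.11). These counts were near the shares over all tested genes, 30.4% higher and 35.5% lower. In ρ0 cells none of the 40 rose and 22 fell (median -0.33), against 19.2% and 22.1% of all tested genes. Of complex V subunits 17 of 17 lay below 0, as did 7817 of 15262 tested genes. The responses differed for 4 upward and 12 downward (median -0.23), against 21.6% and 18.8% of all tested genes. In full medium 13 were higher and 12 lower in ρ0 cells (median 0.00), against 30.5% and 31.8%. With both lines starved 11 were higher and 20 lower (median -0.23), against 32.9% and 33.5%. The ρ0 starvation, interaction and full medium counts use the ρ0 control libraries, which stood apart from each other. Whether complex I differed from these complexes was not tested.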

How the data were processed

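The deposited values are raw counts of reads on each gene symbol in 8 libraries, which the authors did not normalize. The submitters' processing notes name Bowtie, Partek and hg19 without versions or roles. Counting rules, annotation and strand use are not given in the sources used here. Genes are reported by symbol, and coordinates belong only to RefSeq sequences on GRCh38.p14. RNA was extracted with Trizol.

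These counts were tested with edgeR 4.0.16 under R 4.3.3 (filterByExpr, TMM, quasi-likelihood test, 1 mean per group, all 8 libraries, 4 residual degrees of freedom, prior 3.40). The biological coefficient of variation was 12.4%. P-values were adjusted by Benjamini-Hochberg over 15262 of 23393 genes. A call is an adjusted p under 0.05, and the study's further threshold is a log2 change beyond 1. The contrasts were the starvation response of parental and of ρ0 cells, the interaction (the ρ0 response minus the parental one), and ρ0 against parental cells in full medium and both starved. The standard error was obtained by dividing the log2 change by the root of F. Levels are TMM-scaled CPM, and a value after ± is the SD of 2 libraries.

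The members and lists were chosen with earlier results of these data known. Named throughout were NDUFB6, NDUFB7, NDUFB10 and NDUFV1, which the study assayed, and, for every contrast, the 4 called members that rose most and the 4 that fell most without overlap between groups (in the interaction, differences of 1 sign in replicates 1 and 2). A gene that these rules name is not reported here by name, though it is in the counts, sums and medians. Other members were chosen after their values were seen. Alternatives were DESeq2 size factors, upper quartile and total count scaling, no filter, DESeq2 1.42.0, limma-voom (limma 3.58.1), the replicate number as a block and leaving out each library. Fits to 1 line alone were added after seeing the data. Scripts were tested on simulated data. The depth was similar over libraries, so precision is limited by 2 libraries per group. Transcript lengths, pseudogenes and exon overlaps came from GENCODE 29 by symbol (45 of 45 matched). Of the members, 19 have a named pseudogene and 21 an exon overlap with another gene, and their counts are uncertain to that extent. Figures were drawn with matplotlib 3.10.9.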

Additional observations from a re-analysis of the deposited data

Results flagged for a closer look

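The starvation response differed between the lines, by the interaction test, for 7 named members (edgeR, adjusted p from 0.0026 to 0.022, 2 libraries per group). On the log2 scale, ρ0 minus parental, it was higher for NDUFB7 (0.876), NDUFB10 (0.719) and NDUFV1 (0.429). It was lower for NDUFAF5 (-1.412), NDUFAF4 (-1.086), NDUFB1 (-0.983) and NDUFA6 (-0.618). With any 1 library outside the ρ0 control group left out, the calls for NDUFAF4 and NDUFB1 ended, as did that for NDUFV1 without 5 of these 6 libraries. The parts of the clone, its supplements and the spread of the ρ0 control libraries in these differences were not tested. Nor was the part of ASS1, which averaged 15.8 CPM in ρ0 and 0.13 CPM in parental libraries.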

How the results depend on the processing

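Of the parental responses named, NDUFB7, NDUFB6, NDUFB10, NDUFV1, NDUFAF5, NDUFAF4, NDUFV3 and NDUFA11 kept their call in all 16 settings, that of NDUFB7 between -2.157 and -1.940. Interactions of NDUFB7, NDUFB10, NDUFAF5 and NDUFA6 kept theirs in all 15, whereas NDUFAF4 and NDUFB1 were called in 9 and NDUFV1 in 10. Of the members called, 17 of 26 in parental starvation, 10 of 17 in ρ0 starvation, 4 of 19 in the interaction, 13 of 21 in full medium and 23 of 30 with both lines starved were called in every setting. The number of members lower in the interaction was 9 with upper quartile and 9 with total counts, against 14. In the parental libraries alone 20 members were higher with starvation, against 11, and in the ρ0 libraries alone 9 were lower, against 16. Leaving out 1 library gave 8 to 20 higher in parental cells, 1 to 10 higher and 10 to 24 lower in ρ0 cells, 2 to 9 higher and 2 to 26 lower in the interaction, and 8 to 21 higher and 5 to 15 lower for ρ0 against parental cells in full medium. The numbers higher in parental cells (19 and 20), higher in ρ0 cells (7 and 10) and lower in the interaction (22 and 26) were above those of all other libraries left out when ρ0 control replicate 1 or 2 was. Leaving out any other library gave 2 or 3 lower in the interaction. In these fits the lone library of a group is assumed to vary like the others. The shares of all tested genes called in fits to fewer libraries are not given here. The counts of such fits therefore cannot be read as particular to complex I genes. No called member changed sign in any setting. Of members not called, 7 did in parental starvation, 14 in ρ0 starvation, 6 in the interaction and 10 in full medium. Among genes named by rule in a comparison these were NDUFB6 in the interaction (0.036 with upper quartile, 0.027 with total counts, -0.221 to 0.089 with a library left out), NDUFB7 in full medium (-0.031 with total counts), and NDUFB10 with a library left out (-0.207 to 0.019 in ρ0 starvation, -0.082 to 0.079 in full medium). The cause was not tested. Total counts moved the median of all genes with starvation to -0.233 in parental and -0.099 in ρ0 cells, and upper quartile to -0.190 and -0.047. Replicate numbers did not pair the libraries (correlations of deviations -0.053 to 0.039), and with the replicate block the interaction had 4 members higher and 10 lower, parental starvation 12 and 14, ρ0 starvation 1 and 15, full medium 11 and 10, and both lines starved 10 and 19. With 2 libraries per group, changes within the gap between the ρ0 control libraries could not be resolved.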

Other observations

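Within the ρ0 control group, the shorter complex I transcripts tended to be higher in replicate 1 and the longer ones in replicate 2. NDUFB2 was higher in replicate 1 by 0.81 on the log2 scale and NDUFB1 by 0.58, whereas NDUFAF4 and NDUFAF1 were lower there by 0.68. Other members went against this tendency. Replicate 1 minus 2 was -0.499 for NDUFA7 and -0.485 for NDUFS3, which are short, and 0.325 for NDUFAF7 and 0.315 for NDUFA4, which are longer. Across the 45 members, which share libraries and are not independent replicates, Spearman's rho between annotated transcript length and the difference of replicate 1 minus 2 was -0.43 in ρ0 control, 0.35 in parental control, 0.06 in parental starved and 0.05 in ρ0 starved libraries. Over 13561 tested genes with an annotated length it was 0.09 in ρ0 control and 0.35 in parental control libraries. The rho of length with the starvation response of the members was 0.21 in parental and 0.22 in ρ0 cells, and with the difference between lines -0.14 in full medium and -0.27 with both starved. All are descriptions.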
